A study of Homo sapiens with 12 samples.

Results

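The extracellular matrix is the protein network that cells secrete and anchor themselves to. Lysyl oxidases are secreted copper enzymes that oxidise lysine residues of collagen and elastin, after which the fibres become cross-linked. Fibronectin, fibrillin, thrombospondin and SPARC build, organise or bind that network. N6-methyladenosine (m6A) is a methyl mark within messenger RNA that FTO can remove and that can affect the splicing, stability and translation of a transcript. The 10 genes described here were LOX, LOXL1, LOXL2, LOXL4, CCDC80, FLRT1, FN1, FBN1, THBS1 and SPARC, of 18329 gene names in the deposited tables. They are a named set of non-collagen matrix genes, selected on their m6A peaks, differential m6A and FPKM in both conditions, which were known when the set was put together. Their differences between conditions are therefore given as a description, without a test.

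HGC27 cells, a line established from a human gastric carcinoma, either had FTO knocked down (libraries named sh) or served as WT controls (named Con). The genotype label of the first group reads FTO-KO and the extraction protocol calls it a knockdown, and the labels do not say what the controls carried. Each condition had 3 libraries of fragments bound by an m6A antibody (IP) and 3 of the fragments before enrichment (input), 12 in all, and the labels do not say whether the numbers 1 to 3 mark separate cultures or different hairpins. FTO stood at 0.786, 0.83 and 0.765 FPKM (fragments per length of transcript and per depth of library) in the knockdown input libraries, against 5.48, 5.68 and 5.52 FPKM in the controls. In RNA from whole cultures, fewer cells with a transcript and less of it per cell cannot be told apart.

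Of the 10 genes, 8 had an m6A peak in at least 1 of both lists, and 4 (LOX, LOXL2, CCDC80 and FLRT1) also had a differential m6A peak and, with it, FPKM values. FPKM came for genes with a differential peak, so RNA levels of the other 6 were not analysed here. FN1 and LOXL4 had no peak under their names or on their exons in either list used here. Of the 10 genes, 6 had peaks in both lists and FBN1 and SPARC in the control list alone when peaks were assigned by the listed gene name.

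The most enriched LOX peak of both lists lay at the 5′ end of the transcript on the minus strand of chromosome 5, at chr5:122077940-122078360 in the knockdown list and at chr5:122077880-122078360 in the control list. It covered the RefSeq transcription start, and the first 50 transcribed bases hold GGACT, the most common form of the m6A consensus, starting at base 20. The motif is shown because it lies inside the peak of both lists, as 25 bases at chr5:122078226-122078250 (RefSeq, GRCh38.p14, minus strand) with GGACT in capitals.
LOX transcript: ccgctctccgGGACTgccgcgccgc
GGACT occurs in the first 50 transcribed bases of 4.90% of 35116 RefSeq start sites, and a match is not evidence that this adenosine was methylated. Of the 9 genes with a RefSeq entry, LOX and LOXL4 held it there.

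The promoters of the 3 genes with the lowest knockdown-to-control ratio of RNA are shown for comparison, as the 250 bases before the RefSeq start. ACGTG, a form of the hypoxia response element core, was searched on both strands, and capitals mark ACGTG or its reverse complement CACGT. The other form of that core, GCGTG, was not searched. The windows are chr5:122078260-122078509 (minus strand) for LOX, chr3:112641144-112641393 (minus strand) for CCDC80 and chr11:64035681-64035930 (plus strand) for the first of 2 RefSeq starts of FLRT1, all in GRCh38.p14.
LOX promoter: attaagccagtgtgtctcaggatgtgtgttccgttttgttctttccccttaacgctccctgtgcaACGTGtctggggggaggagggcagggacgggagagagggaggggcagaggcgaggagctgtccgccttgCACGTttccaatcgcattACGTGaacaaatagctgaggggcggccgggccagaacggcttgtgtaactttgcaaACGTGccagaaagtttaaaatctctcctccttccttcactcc
CCDC80 promoter: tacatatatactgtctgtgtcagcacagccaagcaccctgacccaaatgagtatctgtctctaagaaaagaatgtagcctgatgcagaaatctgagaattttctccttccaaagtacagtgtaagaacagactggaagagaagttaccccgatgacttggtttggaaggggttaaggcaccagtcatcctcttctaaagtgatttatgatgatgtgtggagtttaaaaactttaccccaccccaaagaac
FLRT1 promoter: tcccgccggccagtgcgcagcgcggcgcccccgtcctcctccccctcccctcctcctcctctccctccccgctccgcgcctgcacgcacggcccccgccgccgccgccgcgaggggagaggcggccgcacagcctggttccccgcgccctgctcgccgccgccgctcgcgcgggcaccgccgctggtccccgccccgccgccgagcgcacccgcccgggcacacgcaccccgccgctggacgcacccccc
This LOX window held 4 matches that did not overlap, starting at positions -185, -116, -98 and -42 from the start. The windows of the other 2 RefSeq starts of LOX overlap each other and held 1 match each, which may be the same site. The CCDC80 window and both FLRT1 windows held no ACGTG match. The FLRT1 peaks were listed with a transcript that starts downstream of both windows, at chr11:64103188. The bases before that start were not among the windows searched for FLRT1. The FLRT1 sequence shown does hold CACGC, the reverse complement of the form that was not searched. At least 1 match was found in 18.5% of all 35116 windows and at least 4 in 0.669%. ACGTG was thus not found in all 3 genes in these windows, and any part of it in their RNA levels was not tested. TGANTCA (N for any base) and TATAAA were searched in the same windows. In these 3 genes TGANTCA was found in the second FLRT1 window alone and TATAAA in none. Of all windows, 6.57% held TGANTCA and 10.7% held TATAAA.

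Among the lysyl oxidases, LOX and LOXL1 carried their most enriched peak at the 5′ end in both lists. Fold enrichment of IP over input is the authors' value for each peak, from 1 list per condition, so it has no replicate error and describes a peak within its list. LOX, the founding member of the family, had 3 peaks in each list. The 5′ UTR peak had 9.29-fold enrichment in the knockdown list and 7.04-fold in the control list. The exon 1 peak had 4.33-fold in the knockdown and 4.01-fold in the control list, and the 3′ UTR peak had 3.42-fold in the knockdown and 3.78-fold in the control list. Every LOX peak of one list overlapped one of the other, and the 5′ peak shared 421 exonic bases.

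LOXL1, which is needed for elastic fibre maintenance in mice, had the same 567-base 5′ UTR peak in both lists (chr15:73926436-73927002), with 6.74-fold enrichment in the knockdown list and 5.20-fold in the control list. A peak further into exon 1 had 2.77-fold enrichment in the knockdown list. In the control list the matching peak (5.04-fold) was listed under LOXL1-AS1, the antisense gene, although its exon model was that of LOXL1. The labels state no strand for the libraries, so reads of LOXL1 and LOXL1-AS1 cannot be told apart there.

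LOXL2, a lysyl oxidase that acts on collagen IV, had peaks at different places in each list. Its 5′ UTR peak had 4.61-fold enrichment in the knockdown list and 4.91-fold in the control list, with 90 bases shared. The other knockdown peak crossed exon 4 (chr8:23333499-23341153, 300 exonic bases, 1.81-fold), where the control list had none. The other control peak was annotated as 3′ UTR (chr8:23297166-23297585, 5.81-fold), where the knockdown list had none. The transcript listed for that control peak, from 23316734 to 23320005, does not cover it. Without replicates per list, presence in 1 list is not a test of a difference.

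CCDC80 encodes a secreted matrix-associated protein, and FLRT1 a transmembrane adhesion protein with leucine-rich repeats and a fibronectin type III domain that is not itself deposited in the matrix. At the 5′ end of CCDC80 the knockdown list had 2 peaks, of 1979 bases at 12-fold and of 451 bases at 11.2-fold. The control list had 1 peak of 2669 bases there at 9.40-fold, which shared 2430 bases with them. Its 3′ UTR peak had 3.91-fold enrichment in the knockdown and 3.53-fold in the control list. The transcript listed for it spans 112605467 to 112610280. The knockdown peak lies outside that span and the control peak runs past its end.

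FLRT1 had the strongest enrichment of the 10 genes. Its 5′ UTR peaks reached 25-fold and 27-fold in the knockdown list, and 20.4-fold and 20.2-fold in the control list, and the lower of each pair stood at percentile 93.3 of the knockdown list and 94.2 of the control list. These 2 peaks shared 460 exonic bases within each list, since 1 of them followed the exons of the overlapping gene AP000721, so they are not separate sites. Its 3′ UTR peak had 15-fold enrichment in the knockdown and 12.4-fold in the control list.

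Peaks of THBS1 and FBN1 were annotated as 3′ UTR, and those of SPARC as 5′ UTR. THBS1 encodes thrombospondin-1, which binds cells, matrix and latent TGF-beta. Its main 3′ UTR peak had 15.9-fold enrichment over 809 bases in the knockdown list and 12.5-fold over 1048 bases in the control list (chr15:39594266-39596234). The transcript listed for it is a short retained-intron one, from 39594068 to 39595551, and the peak runs past that end. The listed transcript thus does not settle which THBS1 transcript the region label refers to. The control list had 2 further THBS1 peaks, at 8.40-fold and 1.43-fold. FBN1, which encodes the microfibril protein fibrillin-1, had peaks in the control list alone, of 540 bases at 9.16-fold and of 181 exonic bases at 7.64-fold. Both were listed with shorter transcripts of the gene, and the 540-base peak runs past the end of its listed transcript. On exons of SPARC, a collagen-binding glycoprotein, the knockdown list had a 181-base peak at 3.86-fold that it listed under the antisense gene CLMAT3. The control list had a 61-base peak at 2.07-fold under SPARC itself, and both covered the same 61 bases.

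**Figure D1:**
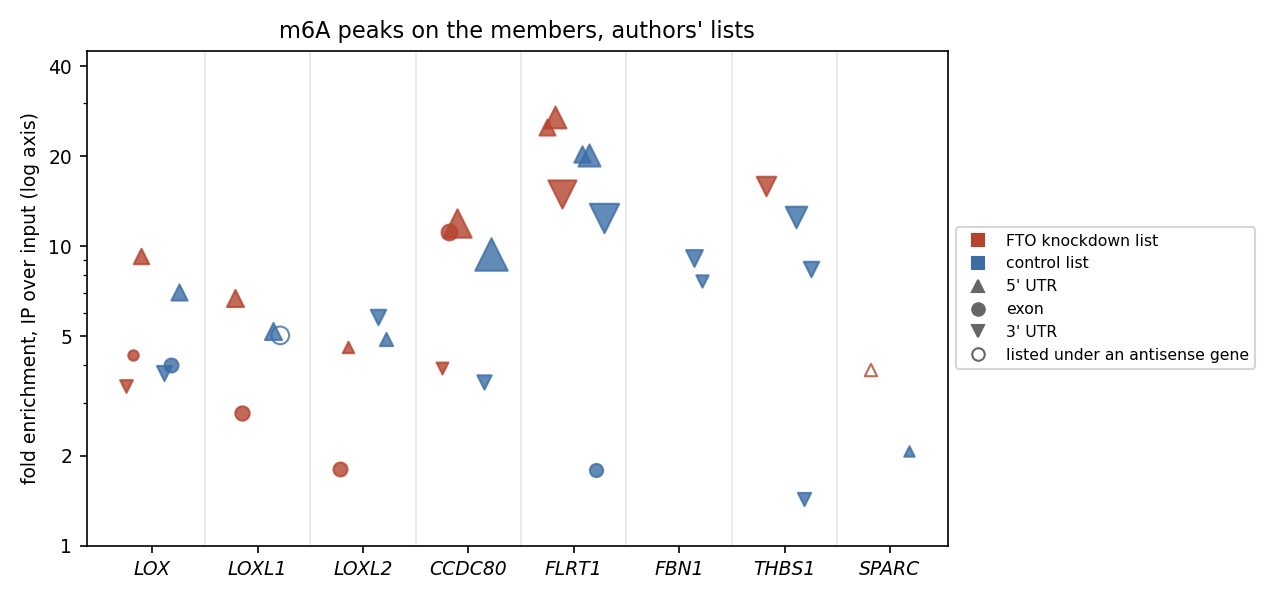
Fold enrichment of IP over input (log axis) of every m6A peak on the 8 genes with a peak, knockdown list left of control list for each gene. Symbols give the annotated region, symbol area grows with exonic length, and open symbols are peaks listed under an antisense gene; FLRT1 reached 27-fold in the knockdown list and 20.4-fold in the control list.

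The 14 peaks of these genes in the knockdown list had a median enrichment of 8.02-fold, against 7.05-fold for all 28888 peaks of that list. The 18 in the control list had a median of 6.43-fold, against 6.11-fold for all 39492. The 5′ UTR held 42.9% of them in the knockdown list, against 13.9% of that whole list. In the control list it held 38.9%, against 12.6% of the whole list. With so few peaks, some of which share bases, these shares are a description. Of the 14 knockdown peaks, 13 overlapped a control peak on the same gene's exons by at least 1 exonic base, and of the 18 control peaks 12 overlapped a knockdown peak. Over the whole lists the shares were 88.7% of knockdown and 57.6% of control peaks with the same exon model.

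RNA of LOX, CCDC80 and FLRT1 was lower in the knockdown libraries by a factor of 1.97 to 2.27, and that of LOXL2 by less. LOX had 8.90, 8.61 and 9.42 FPKM in the knockdown libraries, against 18.8, 18.5 and 17.0 FPKM in the control libraries. The groups lay far apart, and the 3 knockdown values fell within 1 FPKM of one another. On the log2(FPKM + 1) scale LOX had a change of -0.94 (SE 0.0531), and its ratio of control to knockdown mean FPKM was 2.02.

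CCDC80 had 3.80, 4.14 and 4.22 FPKM in the knockdown libraries, against 9.46, 9.76 and 8.42 FPKM in the controls. It had the largest difference of the 4, a log2 change of -1.01 (SE 0.0621) and a ratio of control to knockdown of 2.27. FLRT1 had 3.42, 3.47 and 3.53 FPKM in the knockdown libraries, against 6.68, 6.83 and 6.99 FPKM in the controls. Its libraries were the tightest of the 4 genes, with an SD of 0.0556 FPKM in the knockdown and 0.153 FPKM in the control (n = 3 each), and its log2 change was -0.81 (SE 0.0414). FLRT1 shares exons with AP000721 and lies opposite AP006333, so its FPKM may hold reads of either.

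LOXL2 had 13.8, 14.5 and 14.7 FPKM in the knockdown libraries, against 15.3, 16.02 and 17.9 FPKM in the controls. The groups did not overlap, but the nearest libraries were close, at 14.7 FPKM in the knockdown and 15.3 FPKM in the control, and the log2 change was -0.18 (SE 0.059). The authors' deposited table gives LOXL2 an expression q-value of 0.731, and gives 4.68e-22 for LOX, 2.13e-28 for CCDC80 and 2.43e-10 for FLRT1.

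In order of FPKM, which is per length, the knockdown libraries had LOXL2 highest (14.3 ± 0.464), then LOX (8.98 ± 0.414), CCDC80 (4.05 ± 0.22) and FLRT1 (3.48 ± 0.0556; SD, n = 3). The control libraries had LOX highest (18.1 ± 1.0), then LOXL2 (16.4 ± 1.32), CCDC80 (9.22 ± 0.705) and FLRT1 (6.83 ± 0.153; SD, n = 3). The control values of LOX and LOXL2 overlapped, while LOXL2 stood above LOX in every knockdown library.

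**Figure D2:**
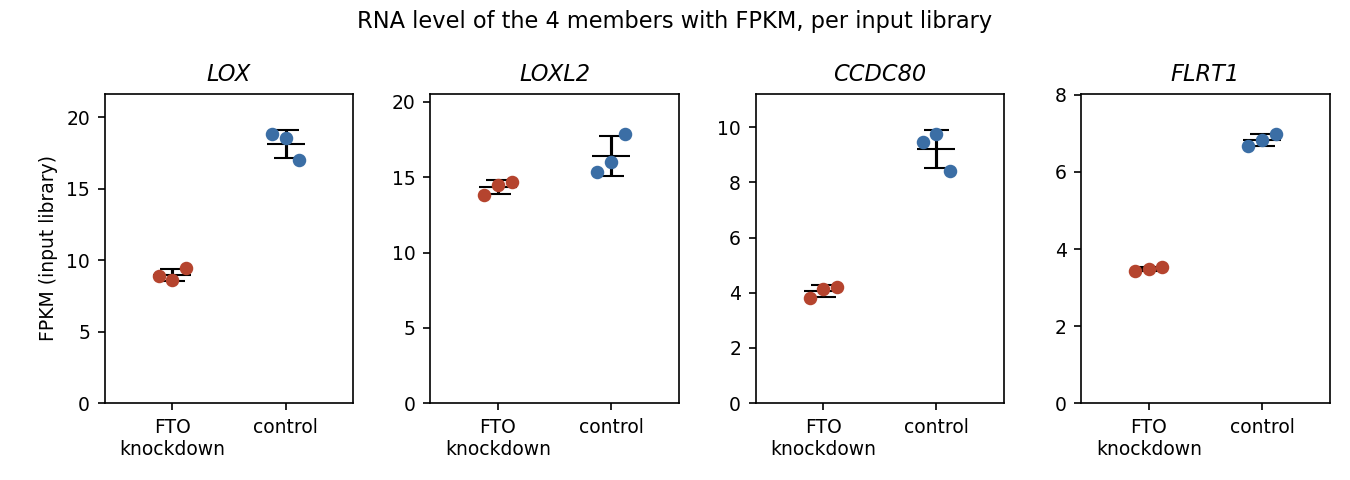
FPKM of LOX, LOXL2, CCDC80 and FLRT1 in each of 3 knockdown (left) and 3 control (right) input libraries; bars give the mean and SD. In all 4 genes each knockdown library lies below each control library, by the least in LOXL2.

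All 4 genes passed the filter of a mean of 1 FPKM. In limma over 4515 genes, with Benjamini-Hochberg adjustment, the 4 were called at an adjusted p under 0.05, all lower, beside 62.4% of all tested genes called and 37.9% called lower. Groups did not overlap in any of the 4, beside 67.8% of all tested genes. Nothing is read from these counts, because the genes were chosen with this contrast known. LOXL2 lost its call after median-centring (adjusted p = 0.259) and without knockdown replicate 1 (0.0903) or 2 (0.058). The median log2 change was -0.87 for the 4 genes and -0.07 for all tested genes. LOX, CCDC80 and FLRT1 stood at percentiles 0.997, 0.753 and 1.88 of all log2 changes, and LOXL2 at percentile 35.7.

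**Figure D3:**
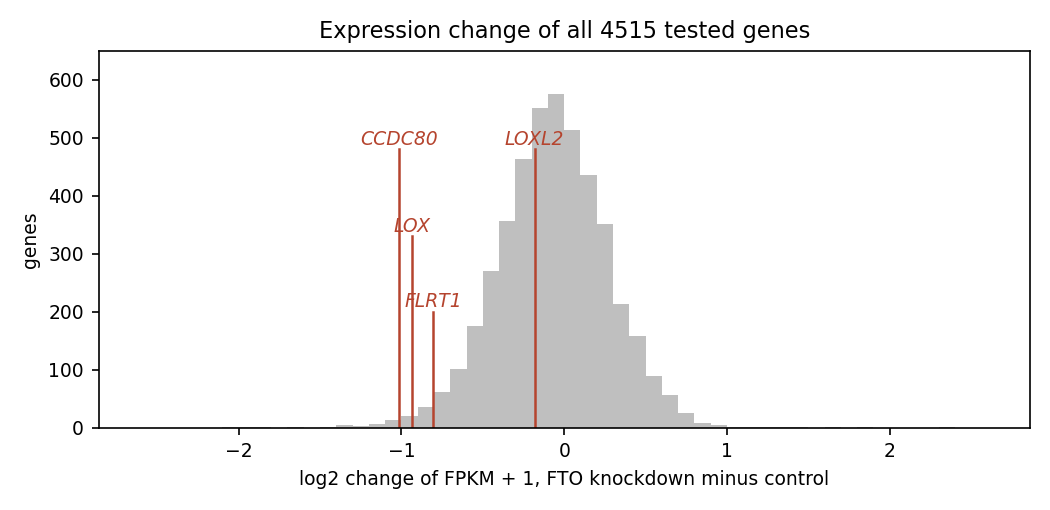
Histogram of the log2 change (knockdown minus control) of all 4515 tested genes, with vertical lines at LOX (-0.94), CCDC80 (-1.01), FLRT1 (-0.81) and LOXL2 (-0.18). The first 3 lie in the lower tail and LOXL2 near the middle.

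The genes whose profile over the 6 input libraries was most like that of LOX were CA12, a membrane carbonic anhydrase, JCAD, a cell junction protein, and SDC2, the heparan sulfate proteoglycan syndecan-2. Likeness was the root-mean-square difference of centred log2(FPKM + 1), which was 0.0277 for CA12, 0.0519 for JCAD and 0.0577 for SDC2. CCDC80 differed from LOX by 0.0607 on the same measure, FLRT1 by 0.0929 and LOXL2 by 0.394. CA12 had a mean of 3.62 FPKM in the knockdown and 7.62 FPKM in the control libraries.

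The differential m6A peaks of these genes were modest in size. The authors' deposited table lists a log2 fold change of m6A of 0.65 for the LOXL2 exon 4 peak, of 0.33 for the FLRT1 5′ UTR peak and of 0.29 for the CCDC80 5′ end peak, each turned here to knockdown over control and so higher in the knockdown. It lists -0.16 for the LOX 3′ UTR peak, lower in the knockdown. The FLRT1 row (chr11:64060616-64103653) is the peak that follows the exons of AP000721, so its m6A change, adjusted p and percentile may be those of either gene. The authors' adjusted p-values were 6.31e-36 for LOXL2, 0.0166 for FLRT1, 1.58e-25 for CCDC80 and 0.0851 for LOX. The knockdown peak crossing exon 4 of LOXL2 had only 1.81-fold enrichment, percentile 3.14 of its list, and the control list had no peak there. The table holds peaks with an unadjusted p up to 0.049, and LOX, at 0.0347, was the nearest of the 4 to that bound. Of all 8687 differential peaks used, 55.4% were higher in the knockdown and 44.6% lower. Against the absolute log2 m6A changes of the table, LOX stood at percentile 1.66, CCDC80 at 9.91, FLRT1 at 13.3 and LOXL2 at 45.7. LOX, CCDC80 and FLRT1 thus combined some of the smaller listed m6A changes with RNA changes from the lower tail of the tested genes. The 5′ UTR peak of LOX, the most enriched of that gene, had no row in the differential table. Its enrichment stood at percentile 62.3 of the knockdown list and 59.3 of the control list.

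In CCDC80, FLRT1 and LOXL2 m6A was listed as higher and RNA was lower in the knockdown, and all 3 genes were called as lower in limma as deposited, LOXL2 with the exceptions given above. Peaks listed as higher whose gene was called as lower made up 19.5% of 6379 differential peaks of tested genes. In LOX m6A at the 3′ UTR was listed as lower and RNA was called as lower. Peaks listed as lower whose gene was called as lower made up 17.8% of them. On the strand opposite FLRT1, AP006333 had a peak at chr11:64118272-64119210 with 27.8-fold enrichment in the knockdown list and 12.4-fold in the control list, while the authors' deposited table lists its m6A change as -0.37, lower in the knockdown. Those values point in opposite directions, and this peak overlies the FLRT1 3′ UTR peak.

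**Figure D4:**
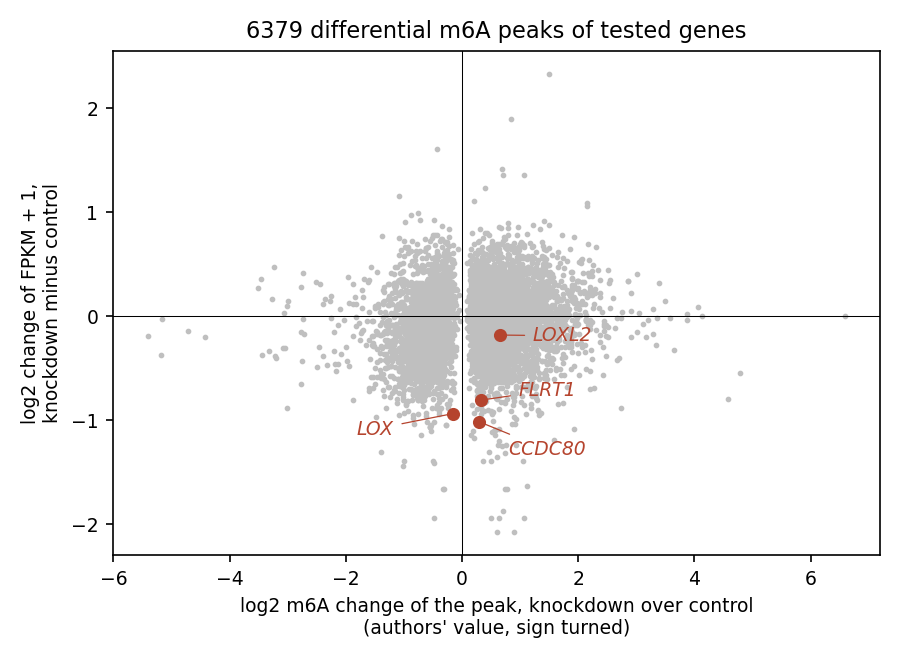
Authors' log2 m6A change of each of 6379 differential peaks (x axis, turned to knockdown over control) against the log2 expression change of its gene (y axis, knockdown minus control). LOX lies left of 0 at -0.16 and CCDC80, FLRT1 and LOXL2 lie right of it; all 4 lie below 0 on the y axis.

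Related genes were taken from 6 lists, of cross-linking enzymes, elastic fibres, adhesive proteins, receptors, FLRT partners and proteases. They hold 156 symbols, which include older names of some of the same genes. Of these, 32 had FPKM, and so a differential peak, and 26 were tested. In limma 19 of the 26 were called lower and 2 higher, with a median log2 change of -0.30 against -0.07 for all tested genes. The authors' deposited expression q-values do not follow all of these calls. Of the genes of these lists described below, MFAP4 (0.146), LAMB2 (0.0711) and ADGRL1 (0.458) had a q-value above 0.05, and the others were under it. LTBP3 (0.0463), ITGB5 (0.00777) and CALR (0.0117) were under 0.05 with higher means in the knockdown, and limma did not call them. Median-centring gave 15 lower and 4 higher and quantile normalization 18 lower and 3 higher, while for all tested genes 1107 were higher and 1712 lower as deposited, 1507 and 1213 after median-centring, and 1425 and 1291 after quantile normalization. These lists were drawn up with earlier results known.

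Of 6 tested genes of cross-linking and procollagen processing, 4 fell and 1 rose, though 1 fell and 1 rose after median-centring, and 2 fell without knockdown replicate 1 or 2. PLOD1, which hydroxylates collagen lysines before lysyl oxidases act on them, fell to 15.6 ± 0.221 FPKM in the knockdown, against 21.3 ± 1.2 in the control (SD, n = 3; limma log2 change -0.43, adjusted p = 0.000164). BMP1, the protease that releases active LOX from its propeptide, rose to 8.30 ± 0.0656 FPKM in the knockdown, against 5.8 ± 0.397 in the control (SD, n = 3; limma log2 change 0.45, adjusted p = 0.000186).

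Of 4 tested genes of elastic fibres and microfibrils, 3 fell and 2 did so under either other scaling. FBLN5, fibulin-5, which tethers LOXL1 and elastin in mice, fell to 5.04 ± 0.372 FPKM in the knockdown, against 8.33 ± 0.458 in the control (SD, n = 3; limma log2 change -0.63, adjusted p = 8.48e-05). MFAP4, a microfibril-associated protein, fell to 94 ± 5.34 FPKM in the knockdown, against 116 ± 6.42 in the control (SD, n = 3). Of the 2 tested adhesive proteins, LAMB2, a laminin chain, fell to 8.67 ± 0.234 FPKM in the knockdown, against 10.9 ± 0.333 in the control, and TNC, tenascin-C, rose to 10.4 ± 0.577 FPKM in the knockdown, against 8.56 ± 0.154 in the control (SD, n = 3).

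Among 6 tested receptors of fibronectin and thrombospondin 4 fell, and the other 2 (ITGB5 and CALR, named after their values were seen) were called as higher after median-centring. SDC2 fell to 7.92, 8.58 and 8.69 FPKM in the knockdown libraries, against 17.2, 17.2 and 14.7 FPKM in the controls (limma log2 change -0.89, adjusted p = 3.63e-05). SDC1, syndecan-1, fell to 29.1 ± 0.752 FPKM in the knockdown, against 39.8 ± 1.65 in the control (SD, n = 3). For FLRT1, the known partners on neighbouring cells are latrophilins. Both tested genes of its list fell: ADGRL3 stood at 1.92 ± 0.208 FPKM in the knockdown and 3.98 ± 0.518 in the control, and ADGRL1 at 28.9 ± 0.896 FPKM in the knockdown and 34.1 ± 1.38 in the control (SD, n = 3). Of 6 tested proteases and inhibitors 5 fell, among them the procollagen protease ADAMTS3 (2.41 ± 0.0396 FPKM in the knockdown, 4.2 ± 0.337 in the control) and the aggrecanase ADAMTS4 (1.77 ± 0.0951 in the knockdown, 3.02 ± 0.0567 in the control; SD, n = 3).

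**Figure D5:**
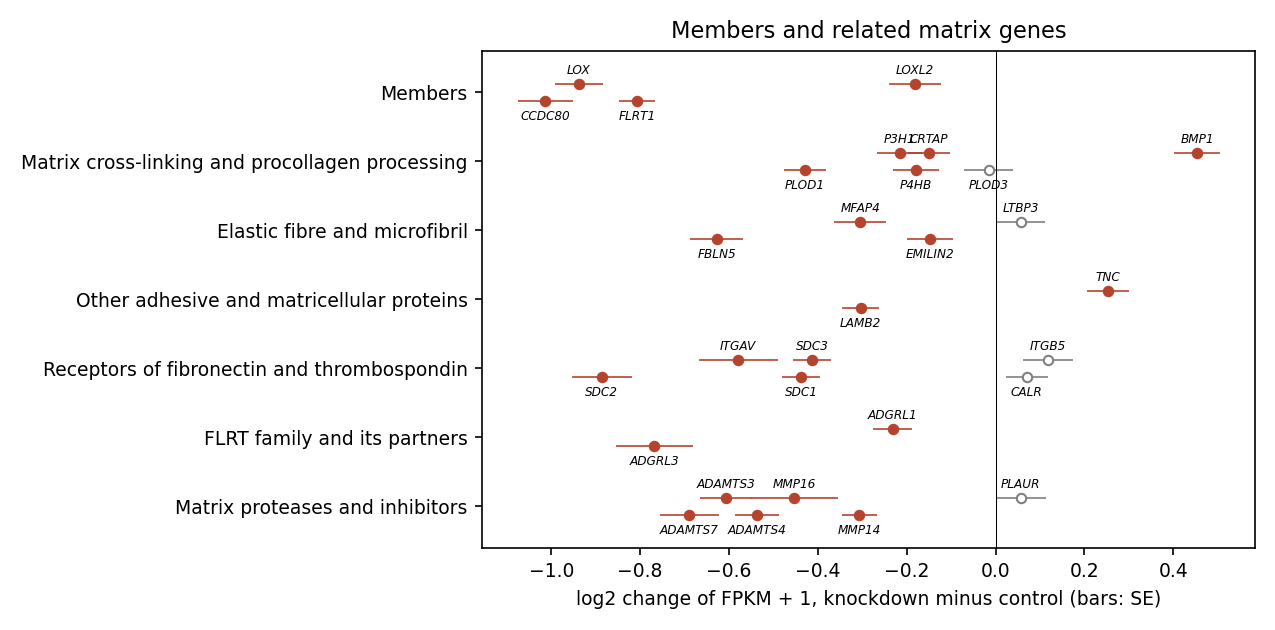
Log2 change (knockdown minus control, bars SE) of the 4 genes with FPKM, labelled Members, and of the 26 tested genes of 6 related lists. Filled symbols passed limma at an adjusted p under 0.05 and open ones did not; BMP1 and TNC lie to the right of 0 and LOX, CCDC80, FLRT1 and SDC2 furthest to the left.

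Differential m6A peaks of these 6 lists numbered 48, of which 34 were listed as higher in the knockdown and 14 as lower, beside 55.4% higher in the whole table. ADAMTS3 had peaks of both directions, with log2 m6A changes of -0.47 in the 3′ UTR and 0.66 at exon 4 in the authors' deposited table. For the other named genes of the lists, that table has lower peaks for FBLN5 (-0.77), ADGRL3 (-1.35), SDC2 (-0.36) and MFAP4 (-0.54 and -0.61). It has higher peaks for BMP1 (0.88), ADAMTS4 (0.875), ADGRL1 (0.63), TNC (0.64) and PLOD1 (0.19). SDC1 (0.24 and 1.14) and LAMB2 (0.59 to 1.11) had higher peaks as well. Not all of these peaks passed an adjusted p of 0.05, SDC2 among those that did not (log10 adjusted p of -0.964).

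As to cell identity, 3 of 11 fibroblast markers had FPKM, and their sum was 154 to 171 FPKM in the knockdown and 179 to 190 FPKM in the control libraries, mostly COL1A1. PDPN fell to 1.03 ± 0.02 FPKM in the knockdown, against 1.97 ± 0.119 in the control, and THY1 rose to 15.0 ± 0.515 FPKM in the knockdown, against 12.5 ± 0.606 in the control (SD, n = 3). Of 14 epithelial markers MUC1 alone had FPKM, at 1.43 ± 0.219 in the knockdown and 1.24 ± 0.0415 in the control (SD, n = 3), which did not pass as deposited and was called as higher under either other scaling and without knockdown replicate 2, and no immune or endothelial marker did. FPKM came with a differential peak, so a lack of it is not a lack of RNA. Peaks lay on 7 of 11 fibroblast, 5 of 14 epithelial, 2 of 8 immune and 2 of 6 endothelial markers in the knockdown list. In the control list these were 9, 6, 2 and 2. The defining markers other than those given with FPKM could not be read, so the gastric epithelial label could not be checked. Their part in the matrix results was not tested.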

How the data were processed

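Poly(A) RNA was fragmented, in part enriched with an m6A antibody, and sequenced as paired ends, per the labels' protocols. Tools appear without roles per the submitters' processing notes, namely HISAT2 2.0, StringTie 1.3.0 and Bowtie 0.12.2, and no source used here gives the peak caller. The notes also name mm8, a mouse build, yet identifiers are human, and 99.1% of 24159 listed transcripts overlapped the same gene in RefSeq GRCh38.p14, so positions are read as GRCh38. File starts count from 0 and were raised by 1.

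Per the file headers, the authors deposited FPKM per input library, and for each differential peak its log2 fold change of m6A and p-value, with the adjusted p as a log10 score. In 1 deposited list per condition, each peak has its fold enrichment, a ratio of IP to input, and log10 scores of p and adjusted p. Deposited log2 values were control over knockdown (m6A rho of -0.8 with knockdown over control enrichment, 1037 peaks) and were turned. Rows without a gene name (283, holding p above 1) and 3 duplicate peaks were left out. Sequencing depth is unknown.

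Tested genes had mean FPKM of 1 or more and entered as log2(FPKM + 1), which understates changes of low genes, with limma 3.58.1 in R 4.3.3 (empirical Bayes with a trend, two-sided, Benjamini-Hochberg over 4515 genes, threshold 0.05), checked on simulated data. The labels name no separate cultures, so these p-values reflect library spread that may be technical. The genes and lists were chosen with earlier results of these data known. Named beside the 10 genes were FTO, the 2 genes of each list with the smallest p and the 3 genes most like LOX. Alternatives were another pseudocount, filter or scaling, a replicate block, leaving out each library, and stricter peak and overlap rules.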

Additional observations from a re-analysis of the deposited data

Results flagged for a closer look

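A pair of peaks on exons of these genes stand in the lists under another gene and so lie outside the counts by gene name. A control peak on LOXL1 exon 1, at 5.04-fold enrichment, is listed under LOXL1-AS1. A knockdown peak on SPARC exons, at 3.86-fold enrichment, is listed under CLMAT3. Counted by exon model, SPARC had a peak in both lists, and 7 of the 10 genes did so in place of 6.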

How the results depend on the processing

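The log2 changes of LOX (-1.004 to -0.84), CCDC80 (-1.16 to -0.92) and FLRT1 (-0.95 to -0.71) kept their direction and call in all 12 alternatives. LOXL2 kept its direction (-0.23 to -0.09) and lost its call in the 3 named above. Leaving out 1 library at a time gave 3 to 4 called of the 4 genes, 18 to 21 called in the 6 related lists and 2408 to 3018 called in all. At a mean of at least 5 FPKM, 1603 of 2390 genes were called, as fewer genes were tested. Median-centring raised the related genes called as higher to 4. The LOX m6A peak was lost at a differential p of at most 0.01 or an adjusted p of at most 0.05, which left 0 peaks lower in the knockdown and 3 higher. With the replicate block 4 of the 4 genes, 20 in the related lists and 2747 in all were called; same-numbered libraries had correlations of -0.0769, 0.0278 and 0.0247 between their deviations, so the numbers were not taken as pairs. Peaks with an adjusted p of at most 1e-05 numbered 14 in the knockdown and 17 in the control list, and those of at least 4-fold enrichment 10 in the knockdown and 13 in the control list. With 50% reciprocal overlap, 9 knockdown and 8 control peaks were shared. Assigning peaks by exon model, added after the data were seen, gave 14 knockdown and 18 control peaks. One list per condition leaves peak differences without replicate error.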
